A study of Mus musculus with 8 samples.

Results

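The 10 genes described here govern how many mitochondria a cell makes and how the mitochondrial genome is copied and read, and were followed across 4 groups of mouse 3T3-L1 adipocytes. The genes were taken by name, not by their measured values, although earlier results of these data were known. All 10 were found among the 43629 genes of the deposited counts and passed the filter on low counts. They are the PGC-1 coactivators Ppargc1a, Ppargc1b and Pprc1, the transcription factors Nrf1, Gabpa and Esrra, and Tfam, Tfb2m, Polg and Polrmt, whose products act on mitochondrial DNA itself.

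Coactivators of the PGC-1 family bind no DNA of their own. They are recruited by transcription factors such as nuclear respiratory factor 1 (the product of Nrf1), the GA-binding protein also called NRF-2 (its DNA-binding subunit is the product of Gabpa) and the estrogen-related receptor ERRα (Esrra), and so raise transcription of nuclear genes for mitochondrial proteins. Among these genes are Tfam, which packs mitochondrial DNA and helps to start its transcription, Tfb2m, which opens the mitochondrial promoters, Polrmt, the mitochondrial RNA polymerase, and Polg, the catalytic subunit of the mitochondrial DNA polymerase. In adipose tissue PGC-1α is best known for its part in the thermogenic programme of brown and beige fat cells, and insulin signalling through PI3K is known to restrain it in liver.

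3T3-L1 is a mouse pre-adipocyte line that becomes fat-storing adipocytes under a hormone mix, here insulin, dexamethasone, isobutylmethylxanthine and rosiglitazone in all groups. Treatment began on day 8 of differentiation and lasted 24 h. The groups were untreated cells, cells given 2 µM A66 (a small-molecule inhibitor of p110α, the PI3K catalytic subunit downstream of the insulin receptor), cells given 0.5 mM palmitate (a saturated fatty acid, supplied bound to albumin), and cells given palmitate plus A66 at the same doses, with 2 libraries in each group. The study's methods give DMSO as the vehicle and another A66 dose for the A66 experiment, whereas the labels give the dose above and untreated cells, and cells with albumin alone were not analysed here. The methods speak of biological repeats for the A66 experiment, and no source used here says whether the palmitate libraries came from separate cultures, so the p-values measure the spread between these libraries. All directions rest on the sample labels, since no gene in these cells was deleted or silenced that could check them.

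Polyadenylated RNA was sequenced, and the 8 libraries held 42247091 to 57529803 counts, at which 3 counts, taken as the detection floor, equal 0.0521 to 0.071 CPM, the unit of counts scaled to library size that is used below. Such floors cover counting error only. The cells carried adipocyte markers, the 10 summing to 15335 to 18295 CPM in a library. Their means ran from Lpl at 9003 CPM and Fabp4 at 2869 CPM down to Lep at 13.5 CPM. Of 8 markers of brown and beige adipocytes, 6 had fewer than 3 counts in every library, Ucp1 (the uncoupling protein of brown fat) and Zic1 had 0 in all, Tbx1 had 0 to 5 counts and Cidea 5 to 24. Of 6 macrophage markers, Adgre1 had 0 counts, Ptprc at most 1 and Itgam at most 3, while Csf1r had 6 to 15, Lyz2 104 to 203 and Cd68 109 to 286. The pre-adipocyte gene Dlk1 had 0 counts, while Vim (37357 to 56169 counts) and Col1a1 (26787 to 41491 counts), which fibroblasts and pre-adipocytes express, remained high.

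Motifs of some of these factors were looked for in the start regions of the genes. RefSeq promoter windows on GRCm38.p6, from 250 bases before to 50 bases after the transcription start, were found for 9 of the 10 genes, with 2 windows for Nrf1 and none for Ppargc1b. Stretches of 5 promoters are shown, from 100 bases before to 24 bases after the start, each 5′ to 3′ on the strand of the gene. They are the promoters of 3 of the 4 genes whose level in every library with palmitate lay below that in every library without (Ppargc1a, Gabpa and Tfam). Of all genes 3.61% did so, and Ppargc1b, the other of the 4, had no window. Shown too are those of 2 genes of mitochondrial transcription that hold an NRF1 motif (Tfb2m and Polrmt). Capitals mark the NRF1 motif GCGCANGCG, the motif CCGGAAG of GABPA and other ETS factors, and the CREB core TGACG, each on either strand.
Ppargc1a: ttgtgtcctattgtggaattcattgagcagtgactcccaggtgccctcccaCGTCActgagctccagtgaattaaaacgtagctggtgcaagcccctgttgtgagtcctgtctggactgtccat
Gabpa: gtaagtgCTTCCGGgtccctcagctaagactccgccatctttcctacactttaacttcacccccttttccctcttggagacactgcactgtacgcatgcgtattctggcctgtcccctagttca
Tfam: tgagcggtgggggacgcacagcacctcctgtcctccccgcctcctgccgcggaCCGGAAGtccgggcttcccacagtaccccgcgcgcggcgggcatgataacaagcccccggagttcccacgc
Tfb2m: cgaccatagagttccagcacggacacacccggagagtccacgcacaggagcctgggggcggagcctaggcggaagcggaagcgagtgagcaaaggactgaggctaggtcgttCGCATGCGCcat
Polrmt: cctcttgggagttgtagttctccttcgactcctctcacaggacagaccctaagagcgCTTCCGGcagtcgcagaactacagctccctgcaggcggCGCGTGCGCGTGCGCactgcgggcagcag
These stretches lie at chr5:51567702-51567825 (Ppargc1a, minus strand), chr16:84835024-84835147 (Gabpa, plus strand), chr10:71238021-71238144 (Tfam, minus strand), chr1:179546253-179546376 (Tfb2m, minus strand) and chr10:79746558-79746681 (Polrmt, minus strand). With position 1 at the start of transcription, the ETS motif lay at -47 to -41 in Tfam, at -43 to -37 in Polrmt and at -93 to -87 in Gabpa itself, and Polg held it at -38 to -32. The NRF1 motif lay at 13 to 21 in Tfb2m, at -141 to -133 in Esrra, and in Polrmt in a pair of overlapping copies from -5 to 10. Among all 32851 windows, 8.86% held CCGGAAG, against windows of 4 of the 9 genes (Gabpa, Tfam, Polg and Polrmt), and 6.25% held GCGCANGCG, against those of 3 (Esrra, Tfb2m and Polrmt). The CREB core was found in 20.8% of all windows and in those of Ppargc1a, at -49 to -45, and Polg, at -90 to -86. GGGCGG, bound by SP1, was found in 35.7% of all windows and in those of 5 of the 9 genes, and AAGATGG, bound by YY1, in 6.34% and in that of Gabpa alone. The ERR element TCAAGGTCA was found in 0.423% of all windows and in none of these 9, which says only that these letters are not in these windows. Both strands were searched for each motif, and different motifs did not overlap in a window of these 9 genes.

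All 10 regulators were well counted. Their raw counts ran from 717 (Ppargc1b) to 5793 (Gabpa) in a library. The standard error of the log2 fold change with A66 was 0.08 for Ppargc1b and 0.05 for Gabpa. Levels of different genes can be compared only per length, and in untreated cells CPM per kilobase of the longest coding transcript was highest for Gabpa (22.4 and 21) and Esrra (20 in both libraries), followed by Tfb2m (13 and 13.4). Nrf1 (10.2 and 10.8), Pprc1 (10.7 and 9.42), Polg (9.56 and 9.95) and Ppargc1a (9.87 and 9.34) formed a run in which each overlapped the next. Tfam (8.41 and 8.81), Polrmt (6.95 and 6.66) and Ppargc1b (5.64 and 5.25) lay below them without overlap. This order depended on the length used. By the union of all annotated exons Nrf1, with 10282 instead of 3584 bases, moved from rank 4 to rank 10, Ppargc1a from 7 to 4 and Ppargc1b from 10 to 9, while Esrra, at a mean of 10.2 instead of 20 CPM per kilobase, changed places with Tfb2m.

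**Figure D1:**
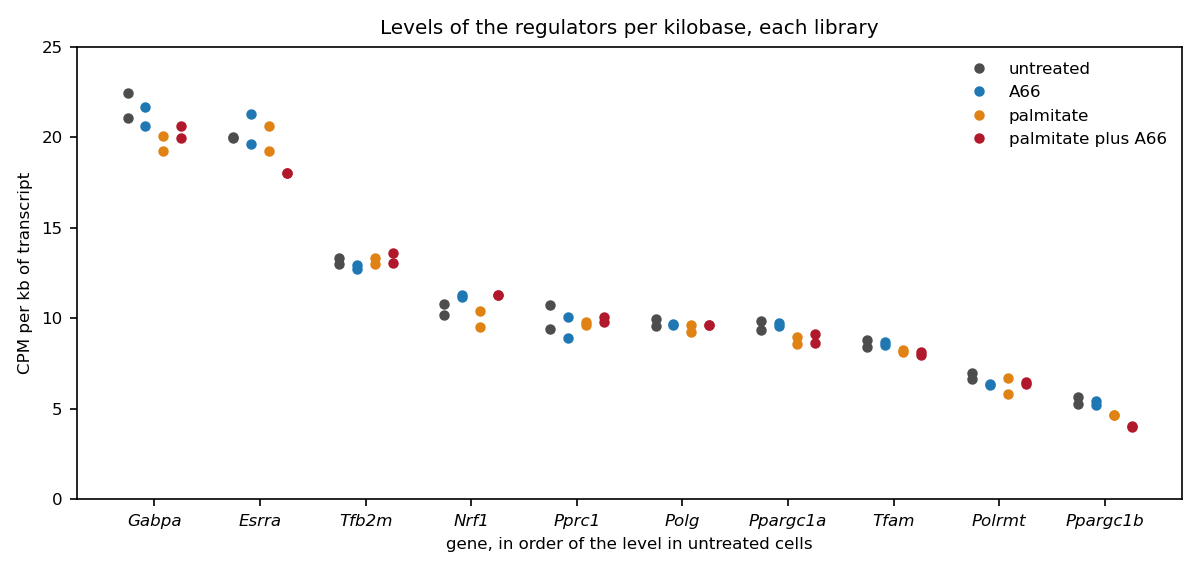
Level of each regulator in CPM per kilobase of its longest coding transcript (vertical axis), for the 8 libraries coloured by group, with genes in the order of their level in untreated cells. Gabpa and Esrra lie near 20, most others near 10, and Ppargc1b is the lowest, between 3.98 and 5.64.

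Of the coactivators, Ppargc1b, which encodes PGC-1β and lies on chromosome 18 of GRCm38 from 61298136 to 61400431 (ENSMUSG00000033871), varied most. Its level was 20.6 and 19.2 CPM in untreated cells, 19.8 and 19.1 CPM with A66, 16.9 and 17.1 CPM with palmitate, and 14.8 and 14.6 CPM with palmitate plus A66. The untreated and A66 libraries overlapped, both palmitate libraries lay below all of them, and both libraries with palmitate plus A66 lay lowest. From the highest to the lowest library Ppargc1b spanned 1.42-fold, the widest range of the 10 genes. Ppargc1a, which encodes PGC-1α and lies on chromosome 5 from 51454250 to 51567726 (ENSMUSG00000029167), had 63.8 and 60.4 CPM in untreated cells, 62.9 and 61.7 CPM with A66, 57.8 and 55.4 CPM with palmitate, and 55.8 and 58.9 CPM with palmitate plus A66. All 4 libraries with palmitate lay below the 4 without, and within each of these sets the groups overlapped. Pprc1, the third coactivator, on chromosome 19 from 46044886 to 46072915 (ENSMUSG00000055491), had 56.2 and 49.4 CPM in untreated cells and 46.8 and 52.9 CPM with A66, a spread that took in all other libraries (50.5 to 52.7 CPM).

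The DNA-binding factors, none of which passed the threshold in the comparisons as fitted, had these levels. Nrf1 (chromosome 6 from 30047988 to 30153458, ENSMUSG00000058440; this is nuclear respiratory factor 1, not the Nfe2l1 gene that shares its short name) had 36.5 and 38.7 CPM in untreated cells, 40.4 and 40 CPM with A66, 37.2 and 34.2 CPM with palmitate, and 40.4 and 40.5 CPM with palmitate plus A66. All 4 libraries with A66 lay above the 4 without, and how many of all genes did so was not counted. Gabpa (chromosome 16 from 84834925 to 84863779, ENSMUSG00000008976) had 112 and 105 CPM in untreated cells, 108 and 103 CPM with A66, 100 and 96 CPM with palmitate, and 99.6 and 103 CPM with palmitate plus A66. Its 4 libraries with palmitate also lay below the 4 without, the closest pair being A66 replicate 2 and palmitate plus A66 replicate 2. Esrra (chromosome 19 from 6910977 to 6921813, ENSMUSG00000024955) had 44.9 and 44.8 CPM in untreated cells, 47.7 and 44 CPM with A66, 43.2 and 46.2 CPM with palmitate, and 40.4 CPM in both libraries with palmitate plus A66. Only the last group stood apart, below the 6 other libraries, a pattern that was likewise not counted over all genes.

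Of the genes that act on mitochondrial DNA, Tfam, Tfb2m and Polg had the narrowest ranges of the 10, from 1.07-fold to 1.11-fold over all libraries. Tfam (chromosome 10 from 71225464 to 71238280) lay at 35 to 36.7 CPM in the 4 libraries without palmitate and at 33.2 to 34.4 CPM in the 4 with it, so that the sets did not overlap. Tfb2m (chromosome 1 from 179528055 to 179546267) spanned 1.07-fold over all libraries and Polg (chromosome 7 from 79446231 to 79466362) 1.08-fold. The A66 libraries of Tfb2m, at 31.7 and 31.1 CPM, lay just below the 6 others (31.8 to 33.3 CPM), and for Polg the A66 libraries, at 76 and 75.4 CPM, lay between the untreated libraries and just above the 4 with palmitate (72.4 to 75.3 CPM). Polrmt (chromosome 10 from 79736123 to 79746581) had 26.1 and 25 CPM in untreated cells, and its palmitate libraries, at 21.8 and 25.2 CPM, took in those of the other treated groups. The spans of Pprc1, Gabpa, Esrra and Polg each overlap that of another protein-coding gene on the opposite strand (Ldb1, Atp5j, Trmt112 and Fanci). Their exons were not compared. Whether shared stretches affected the counts cannot be told, because no source used here says whether reads were counted by strand. Fanci held at most 111 counts and Trmt112 893 to 1417, but Ldb1 held 8025 to 10003, more than Pprc1 in every library, and Atp5j 6434 to 9250, more than Gabpa in every library.

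**Figure D2:**
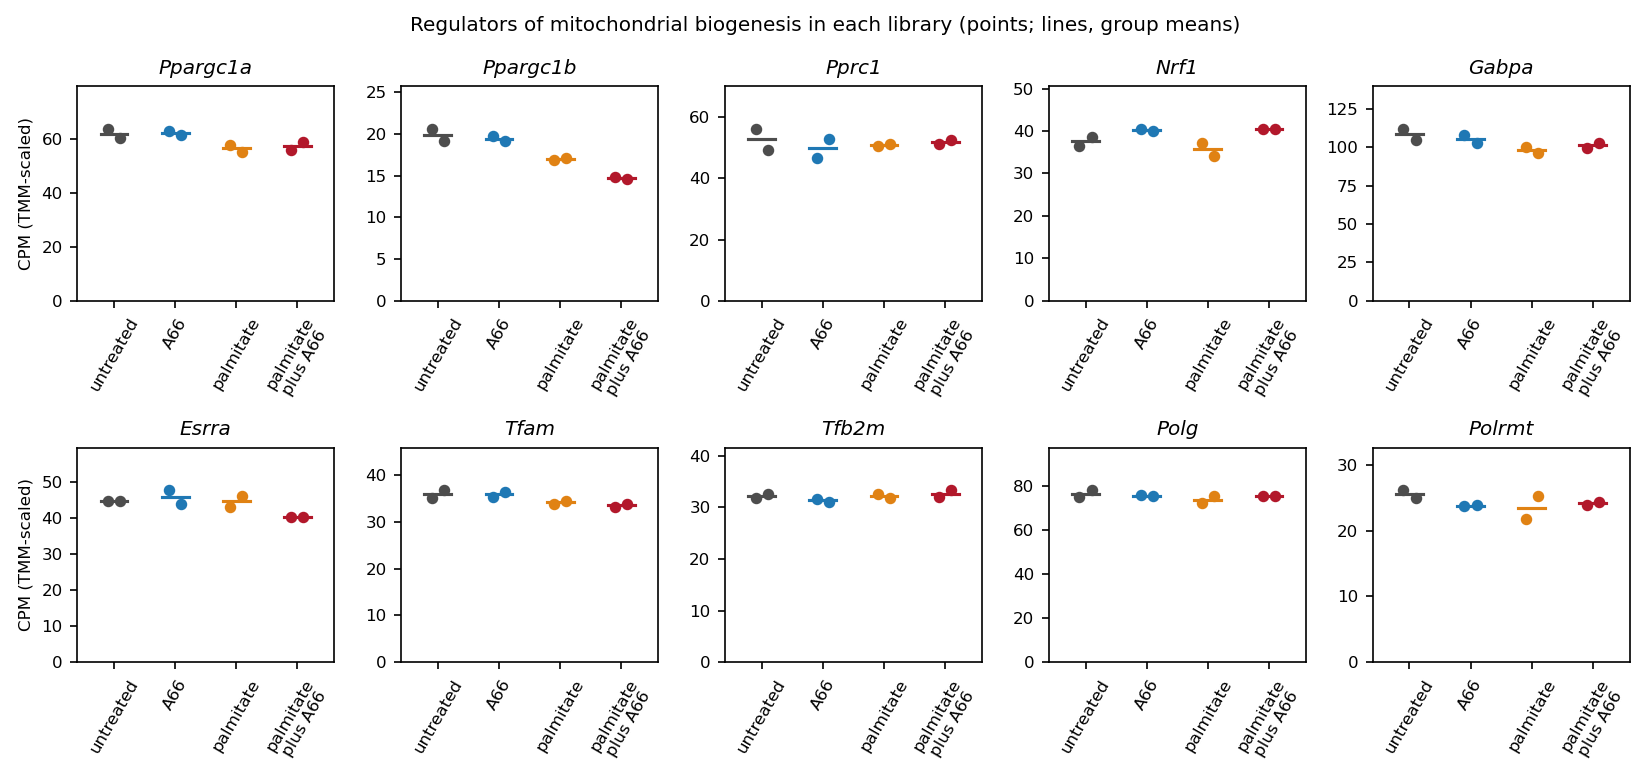
CPM (vertical axes, each from 0) of the 10 regulators in the 2 libraries of each group (points), with group means (lines). Ppargc1b steps down from 19.9 CPM in untreated cells to 14.7 CPM with palmitate plus A66, while Tfb2m and Polg stay within 1.08-fold.

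The A66 comparison asked whether blocking p110α changed the expression of these regulators. With A66, 0 of the 10 passed an adjusted p of 0.05 in edgeR's quasi-likelihood test, against 1.84% of the 14158 genes tested, and 0 had an unadjusted p under 0.05, nor did DESeq2 call any. Log2 fold changes ran from -0.10 (Polrmt) to 0.10 (Nrf1), with a median of -0.02, and 6 of the 10 were negative, as were 50.4% of all genes. The 95% intervals of the 10 together ran from -0.24 to 0.22, Ppargc1a differed by 0.00888 ± 0.05 (SE) on the log2 scale (edgeR, adjusted p = 0.966), with an interval from -0.09 to 0.11, and Ppargc1b by -0.03 ± 0.08 (edgeR, adjusted p = 0.931). The signs of 7 of the 10 turned under an alternative, those of Ppargc1a and Tfam when libraries were scaled by their totals only. In bulk RNA fewer adipocytes and less RNA per adipocyte cannot be told apart, and beside this comparison Vim and Acta2, of the 8 pre-adipocyte markers tested, were higher by 0.19 and 0.235 (edgeR, adjusted p = 0.0082 and 0.0262), calls that were lost without A66 replicate 2, that of Vim also without A66 replicate 1. The Acta2 call was lost with DESeq2 and with all 8 libraries in the fit as well (adjusted p = 0.523 and 0.251), and its log2 fold change ran from 0.106 without A66 replicate 2 to 0.356 without A66 replicate 1. Of the 8, 5 had positive and 3 negative log2 fold changes, and of the 10 adipocyte markers 7 were positive, with a median of 0.06, 5 at an unadjusted p under 0.05. DESeq2 and edgeR called 0 of these 10. Their part in the values was not tested.

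With palmitate alone, all 10 regulators had negative log2 fold changes, from -0.23 to -0.0045 with a median of -0.07, where 49.8% of all genes did, but 0 passed the threshold in edgeR, against 1.17% of 14587 genes, and DESeq2 called 0 as well. Of the 10, 3 had an unadjusted p under 0.05. Ppargc1b differed by -0.23 ± 0.08 (SE; edgeR, adjusted p = 0.181), Gabpa by -0.14 ± 0.05 (edgeR, adjusted p = 0.152) and Ppargc1a by -0.13 ± 0.05 (edgeR, adjusted p = 0.240). For the other 7 the log2 fold changes lay between -0.12 and -0.0045 (edgeR, adjusted p from 0.524 to 0.984). These 10 values share the same libraries and are not independent of each other. Beside them the adipocyte gene Lpl was lower by -0.19 and the collagen gene Col1a1 higher by 0.25 (edgeR, adjusted p = 0.0331 and 0.00331). Of the 10 adipocyte markers 9 had negative log2 fold changes and 1 a positive one, with a median of -0.07. Of 8 pre-adipocyte markers tested 5 were positive and 3 negative. The Lpl call was lost in 5 of 8 omissions of a library (either untreated library, either A66 library and palmitate replicate 1, adjusted p up to 0.313) and with only the 4 libraries compared in the fit (adjusted p = 0.189). The part of these markers in the values was not tested.

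When A66 was added to palmitate, 0 of the 10 passed in edgeR, against 2.81% of all genes, with 3 at an unadjusted p under 0.05 and 0 in DESeq2. Nrf1 was 0.18 ± 0.06 higher than with palmitate alone (SE; edgeR, adjusted p = 0.100), Ppargc1b differed by -0.21 ± 0.08 (edgeR, adjusted p = 0.175) and Esrra by -0.15 ± 0.05 (edgeR, adjusted p = 0.181). The other 7 lay between -0.03 and 0.04 (edgeR, adjusted p from 0.730 to 0.921). Of the markers, Retn, Cidec and Col1a1 were lower and Acta2 was higher in this comparison (log2 fold changes -0.32, -0.23, -0.33 and 0.35), whose part was not tested. Of the 10 adipocyte markers 8 were negative and 2 positive, with a median of -0.10. Of 8 pre-adipocyte markers tested 4 were positive and 4 negative. The calls of Cidec and Acta2 were lost with DESeq2 and without palmitate replicate 2 (-0.112 and 0.231) or palmitate plus A66 replicate 1 (-0.155 and 0.144), that of Cidec also with only the 4 libraries compared.

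**Figure D3:**
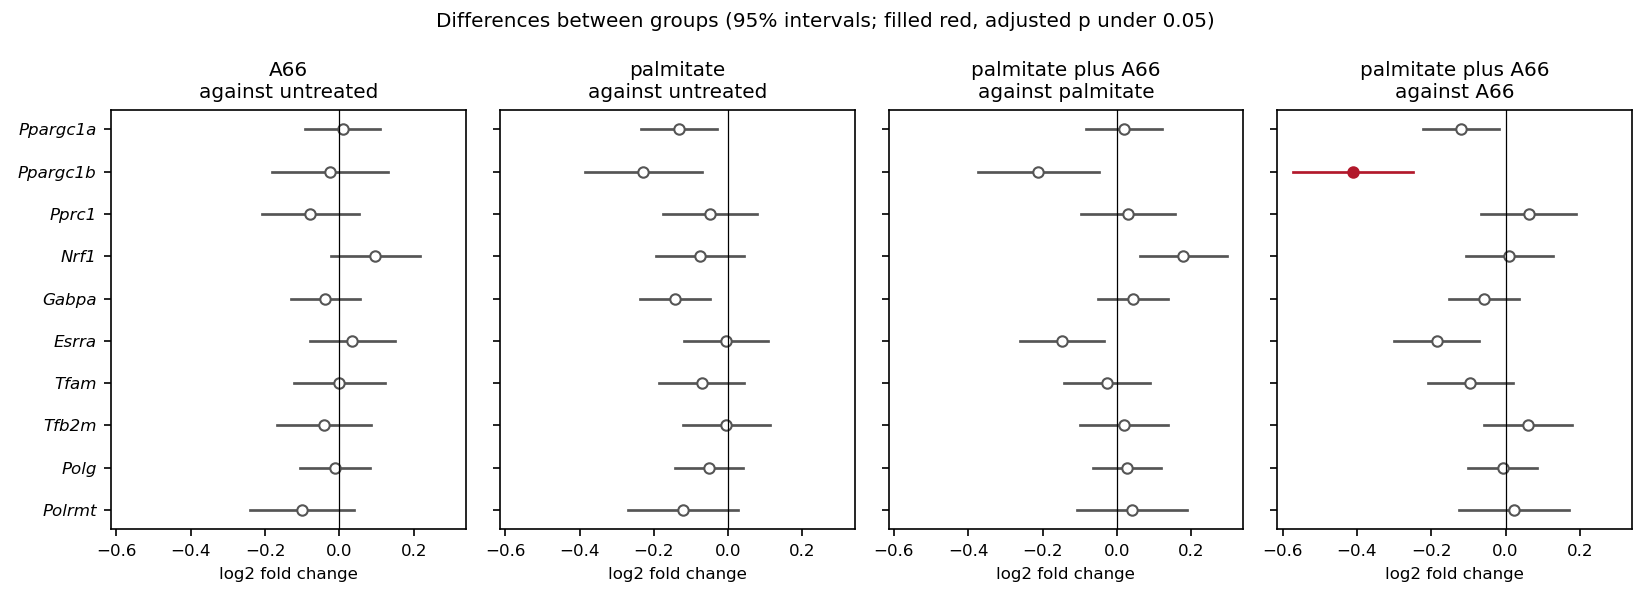
Log2 fold change (horizontal axes) of each regulator in 4 comparisons of 2 groups, with 95% intervals. Filled red marks an adjusted p under 0.05 in edgeR, which only Ppargc1b reached, in palmitate plus A66 against A66.

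Between the 2 groups given A66, Ppargc1b fell with palmitate, from 19.5 ± 0.507 to 14.7 ± 0.158 CPM (SD, n = 2 libraries each). Its log2 fold change was -0.41 ± 0.08 (SE; interval -0.57 to -0.25; edgeR, adjusted p = 0.00314), 0.753 of the level with A66 alone, and it was 1 of 10 regulators called, against 2.73% of all genes. DESeq2 called it too. The call rested on A66 replicate 1, without which the log2 fold change was -0.38 (edgeR, adjusted p = 0.0811), and it was kept without any other library. Esrra, a partner of PGC-1β, differed by -0.185 ± 0.06 (edgeR, adjusted p = 0.0775), and passed when only the 4 libraries compared entered the fit (adjusted p = 0.0462) or when scaled by library totals only (adjusted p = 0.0465). Ppargc1a differed by -0.12 ± 0.05 (edgeR, adjusted p = 0.237) and the other 7 lay between -0.10 and 0.06.

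The fall of Ppargc1b came with a fall of adipocyte genes. Of the 10 adipocyte markers, 6 were lower in the same comparison (Retn, Plin1, Adipoq, Cidec, Cfd and Lpl; log2 fold changes -0.32 to -0.17) and 0 higher, with a median of -0.25 over the 10, and DESeq2 called 4. Of the 6 only Retn kept its call without A66 replicate 1, and likewise without palmitate plus A66 replicate 1, where Ppargc1b kept its own. Their summed level was 17599 to 18295 CPM with A66 and 15335 to 16405 CPM with palmitate plus A66. Of 8 pre-adipocyte markers tested, 0 were called in edgeR, with 1 at an unadjusted p under 0.05 and 0 in DESeq2, and of 3 macrophage markers tested Cd68, a lysosomal protein gene also used as a macrophage marker, was 0.91 higher, at 2.65 and 3.28 CPM with A66 and 5.4 and 5.74 CPM with palmitate plus A66, a call also lost without A66 replicate 1. Of the 3 macrophage markers 2 were positive and 1 negative, and Lyz2 lay lower, at 3.03 and 3.18 CPM with A66 and 2.14 and 2.83 CPM with palmitate plus A66. The part of these changes in that of Ppargc1b was not tested.

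The difference between the A66 effects without and with palmitate was tested directly. In this interaction 0 of the 10 regulators passed in edgeR, against 0.00686% of all genes (1 gene), with 1 at an unadjusted p under 0.05, and DESeq2 gave no adjusted p for any of the 10. That regulator was Esrra, with a difference of -0.18 ± 0.08 (SE; edgeR, adjusted p = 0.588). For Ppargc1b the difference was -0.18 with an interval from -0.41 to 0.04 (edgeR, adjusted p = 0.727), which includes 0.

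A further 3 comparisons of the same fit were added after the values had been seen, and share their libraries with those above. Between palmitate plus A66 and untreated cells, Ppargc1b was lower by -0.44 ± 0.08 on the log2 scale (edgeR, adjusted p = 0.000817), 0.738 of the untreated level, and was 1 of 10 called, against 7.5% of all genes. This call was kept without each library in turn, with adjusted p from 0.000518 to 0.0221. Beside it, 4 of the 10 adipocyte markers and 0 of 8 pre-adipocyte markers were lower, and 2 of 8 pre-adipocyte markers (Vim and Ly6a) and 1 of 3 macrophage markers (Cd68) higher. The other 2 macrophage markers had negative log2 fold changes, as had 2 pre-adipocyte markers. Leaving out 1 library gave 0.247 to 0.563 for Ly6a and -0.253 to -0.133 for Plin1, 1 of the 4 lower adipocyte markers. DESeq2 did not call Plin1. Averaged over cells without and with A66, 2 of the 10 were lower with palmitate, against 5.05% of all genes called, Ppargc1b by -0.32 ± 0.05 (edgeR, adjusted p = 0.000714) and Ppargc1a by -0.13 ± 0.04 (edgeR, adjusted p = 0.0357). The Ppargc1a call was lost without any of 5 libraries in turn (untreated replicate 1, both A66 replicates, palmitate replicate 2 and palmitate plus A66 replicate 1), with adjusted p from 0.0249 to 0.199 over the 8 omissions. The Ppargc1b call was kept without each library in turn. Gabpa differed by -0.10 ± 0.03 (edgeR, adjusted p = 0.0772), and passed when libraries were scaled by their totals only (adjusted p = 0.0387). In the same comparison 6 of the 10 adipocyte markers were lower, of which DESeq2 called 4, not Plin1 and Cfd. Higher were 1 of 8 pre-adipocyte markers (Col1a1, lost in 3 omissions, those of either A66 library and of palmitate plus A66 replicate 2) and 1 of 3 macrophage markers (Cd68). The calls of Plin1 and Cfd were also lost in 3 and 4 omissions, among them those of A66 replicate 1, palmitate replicate 1 and palmitate plus A66 replicate 1. The other 2 macrophage markers had negative log2 fold changes, and the part of these changes in those of Ppargc1a and Ppargc1b was not tested. As a plain count, 4 of the 10 (Ppargc1a, Ppargc1b, Gabpa and Tfam) had all 4 palmitate libraries below all 4 others, against 3.61% of all genes. Averaged over cells without and with palmitate, A66 called 0 of the 10 in edgeR, against 4.97% of all genes, with 2 at an unadjusted p under 0.05 and 0 in DESeq2. Nrf1, the regulator with the smallest p there, was 0.14 ± 0.04 higher with A66 (interval 0.05 to 0.22; edgeR, adjusted p = 0.0503), a value at the threshold, and over 8 other settings that keep all libraries its adjusted p ran from 0.0353 to 0.0921. It passed without untreated replicate 2 or palmitate replicate 1 (adjusted p = 0.0416 and 0.0228) and missed the threshold in the other 6 omissions (up to 0.216). Beside it Retn, Cidec and Col1a1 were lower with A66 and Vim, Acta2 and Ly6a higher, with the calls of Cidec and Acta2 lost in DESeq2. Of the 10 adipocyte markers 6 were negative and 4 positive, and of the 8 pre-adipocyte markers 5 were positive and 3 negative. The Cidec call was also lost in 5 of 8 omissions (either untreated library, A66 replicate 2, palmitate replicate 2 and palmitate plus A66 replicate 1, down to -0.103). The Ly6a call was lost in 4 (untreated replicate 1, A66 replicate 2, palmitate replicate 2 and palmitate plus A66 replicate 1, down to 0.181) and the Acta2 call without A66 replicate 2. Their part in the value was not tested.

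The 26 other nuclear genes for copying, reading and supplying mitochondrial DNA, among them the helicase Twnk, the single-strand binding protein Ssbp1 and the transcription elongation factor Tefm, were examined beside the regulators. All 26 were tested, and 0 passed in edgeR in any of the comparisons, where 0.00686% to 7.5% of all genes were called. For A66 2 had an unadjusted p under 0.05, for palmitate 0, for A66 added to palmitate 1 and for palmitate added to A66 2, while DESeq2 called 0, 0, 0 and 1. Their median log2 fold changes in these 4 comparisons were 0.0037, -0.03, 0.02 and -0.0030. The smallest p belonged to Primpol, a primase and polymerase, with A66 (-0.18; edgeR, adjusted p = 0.147), to Mterf2 with palmitate (-0.16; adjusted p = 0.488), to Rrm2b, a ribonucleotide reductase subunit, with A66 added to palmitate (0.11; adjusted p = 0.275) and to Lonp1, a mitochondrial protease, with palmitate added to A66 (0.12; adjusted p = 0.116). Leaving out 1 library moved Primpol from -0.112 to -0.245 (without untreated replicate 1 and 2, the latter with adjusted p = 0.00785). It moved Mterf2 from -0.0958 to -0.223 and Rrm2b from 0.183 to 0.042 (both without palmitate replicate 1 and 2). Lonp1 passed with DESeq2 and with only the 4 libraries compared.

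Partners of the PGC-1 proteins, taken as 20 nuclear receptors, factors and cofactors of which 16 were tested, included Thra and Rxra, both lower with palmitate added to A66. ERRβ (Esrrb) had at most 1 count and ERRγ (Esrrg) at most 11, whereas Esrra had at least 1908. Thra, a thyroid hormone receptor, had 272 and 259 CPM in untreated cells, 260 and 258 CPM with A66, 238 and 258 CPM with palmitate, and 212 and 216 CPM with palmitate plus A66. Rxra, the partner receptor of PPARγ, had 254 and 236 CPM, 243 and 239 CPM, 214 and 230 CPM, and 196 and 203 CPM in the same order. For both genes the 2 libraries with palmitate plus A66 lay below all others, a pattern not counted over all genes. With palmitate added to A66 they were the 2 of 16 partners called, against 2.73% of all genes, both lower (Thra by -0.28 ± 0.04 and Rxra by -0.27 ± 0.05, SE; edgeR, adjusted p = 0.000497 and 0.000832), and with A66 added to palmitate Thra alone was called (-0.21 ± 0.04; adjusted p = 0.00736), a call lost without palmitate replicate 2 or palmitate plus A66 replicate 1. Against untreated cells, where 7.5% of all genes were called, 3 of 16 partners were lower with palmitate plus A66, Thra, Rxra and the coactivator Ncoa1 (-0.25 ± 0.04; edgeR, adjusted p = 0.000466). In the 2 comparisons with untreated cells 0 partners passed in edgeR with A66 (1 at an unadjusted p under 0.05, Ncoa1, -0.10) or palmitate alone (4, with Rxra the smallest p, -0.14), and DESeq2 called 0 in both. Leaving out 1 library gave -0.139 to -0.0529 for Ncoa1 with A66 and -0.194 to -0.0877 for Rxra with palmitate. With A66 averaged 2 of 16 partners were lower, against 4.97% of all genes called, Thra (-0.125) and Ncoa1 (-0.11). Leaving out 1 library gave -0.153 to -0.0946 for Thra and -0.136 to -0.0911 for Ncoa1. With palmitate averaged 3 were lower, against 5.05%, Rxra (-0.21), Thra (-0.19) and Ncoa1 (-0.135). Pparg, at 293 to 323 CPM, was called in none of these comparisons.

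Among 18 tested regulators of the PGC-1 genes and proteins, the deacetylase gene Sirt1, the AMP-activated kinase gene Prkaa1 and the CREB gene Creb1 were not called in any of the 4 comparisons of 2 groups. Nrip1, which encodes the corepressor RIP140 and is known to oppose PGC-1 action in fat, had 258 and 243 CPM in untreated cells, 242 and 237 CPM with A66, 221 and 229 CPM with palmitate, and 197 and 215 CPM with palmitate plus A66. It fell with palmitate added to A66 (-0.21 ± 0.05, SE; edgeR, adjusted p = 0.00856), the 1 of 18 regulators called there, against 2.73% of all genes, and the call was lost without A66 replicate 1 or palmitate plus A66 replicate 1. Twist1, a repressor of PGC-1α targets in brown fat, had 13.6 and 14.2 CPM with palmitate, above all other libraries (10 to 11.6 CPM). Adding A66 to palmitate lowered it by -0.43 ± 0.09 (edgeR, adjusted p = 0.00804), the 1 of 18 called there, against 2.81% of all genes, and this call was lost without palmitate replicate 2 or palmitate plus A66 replicate 1. With A66 alone 0 of the 18 were called in edgeR (1 at an unadjusted p under 0.05, the CREB coactivator Crtc2, -0.16) and with palmitate alone 0 (4, with Nrip1 the smallest p, -0.15), and DESeq2 called 0 in both. Leaving out 1 library gave -0.216 to -0.102 for Crtc2, and Nrip1 passed in 1 of 9 alternatives. With A66 averaged Twist1 was the 1 of 18 called (-0.22, lost with DESeq2), against 4.97% of all genes. With palmitate averaged Nrip1 was the 1 of 18 called (-0.18), against 5.05%. In palmitate plus A66 against untreated cells 3 of 18 were called, against 7.5% of all genes. Nrip1 was lower by -0.28 and Mybbp1a (0.15) and Prkaa2 (0.30), a kinase subunit gene, were higher (edgeR, adjusted p = 0.00041, 0.0243 and 0.0435). The Mybbp1a and Prkaa2 calls were lost without either untreated library, without either library with palmitate plus A66, and when scaled by library totals only, that of Prkaa2 also without either A66 library.

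Genes often read out as targets of the PGC-1 circuit were 26, of which 21 were tested with A66 and 22 in the other comparisons. The 4 left untested in all comparisons had almost no counts, the thermogenic and muscle genes Ucp1 (0), Dio2 (at most 1), Elovl3 (at most 1) and Fndc5 (at most 4). With A66 alone 0 passed in edgeR (7 at an unadjusted p under 0.05, 0 in DESeq2), and the smallest p belonged to Slc2a4, which encodes the insulin-responsive glucose transporter GLUT4 (-0.15; adjusted p = 0.0659). It passed in 5 of 13 alternatives and omissions (library totals only, no filter, the length correction with and without the block, and without untreated replicate 2, adjusted p down to 0.025). With palmitate 1 of 22 was called, against 1.17% of all genes, the vascular growth factor gene Vegfa, with 403 and 406 CPM in untreated cells and 347 and 361 CPM with palmitate (-0.19 ± 0.04; edgeR, adjusted p = 0.0123), and this call was lost without either untreated library or without palmitate replicate 1. Adding A66 to palmitate lowered 2 of 22, against 2.81% of all genes called, Slc2a4 from 134 and 150 CPM to 118 and 124 CPM (-0.23 ± 0.05; edgeR, adjusted p = 0.00762) and Cycs, cytochrome c, from 242 and 235 CPM to 212 and 216 CPM (-0.155 ± 0.04; adjusted p = 0.0327). The Cycs call was lost in 6 of the 8 omissions of a library (either A66 library, either palmitate library and either library with palmitate plus A66) and with only the 4 libraries compared (adjusted p = 0.0541), and the Slc2a4 call without palmitate replicate 2 or palmitate plus A66 replicate 1. The median over the 22 was -0.07, with 19 negative, where the median of all genes was -0.00079. With A66 alone the median target was at -0.01 with 11 of 21 negative. It was at -0.02 with 12 of 22 negative with palmitate alone, and with palmitate added to A66 at -0.07 with 18 of 22. With palmitate added to A66 Slc2a4 was the 1 of 22 called, against 2.73% of all genes (-0.215 ± 0.05; edgeR, adjusted p = 0.0115; lost without either A66 library or palmitate plus A66 replicate 1). Against untreated cells 6 of 22 targets were lower with palmitate plus A66, where 7.5% of all genes were called, those with the smallest p being Slc2a4 (-0.37), Cycs (-0.24) and the acyl-CoA dehydrogenase gene Acadm (-0.25; lost without palmitate plus A66 replicate 1), and 0 were higher. With A66 averaged 3 of 22 were lower, against 4.97% of all genes called, Slc2a4 (-0.19), Cycs (-0.14) and Idh3a (-0.11), and 1 was higher. With palmitate averaged 4 were lower and 0 higher, against 5.05%, those with the smallest p being Slc2a4 (-0.175), Vegfa (-0.13) and Acadm (-0.155). Slc2a4 is also a gene of differentiated adipocytes, and the adipocyte markers given above moved with it, whose part was not tested.

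**Figure D4:**
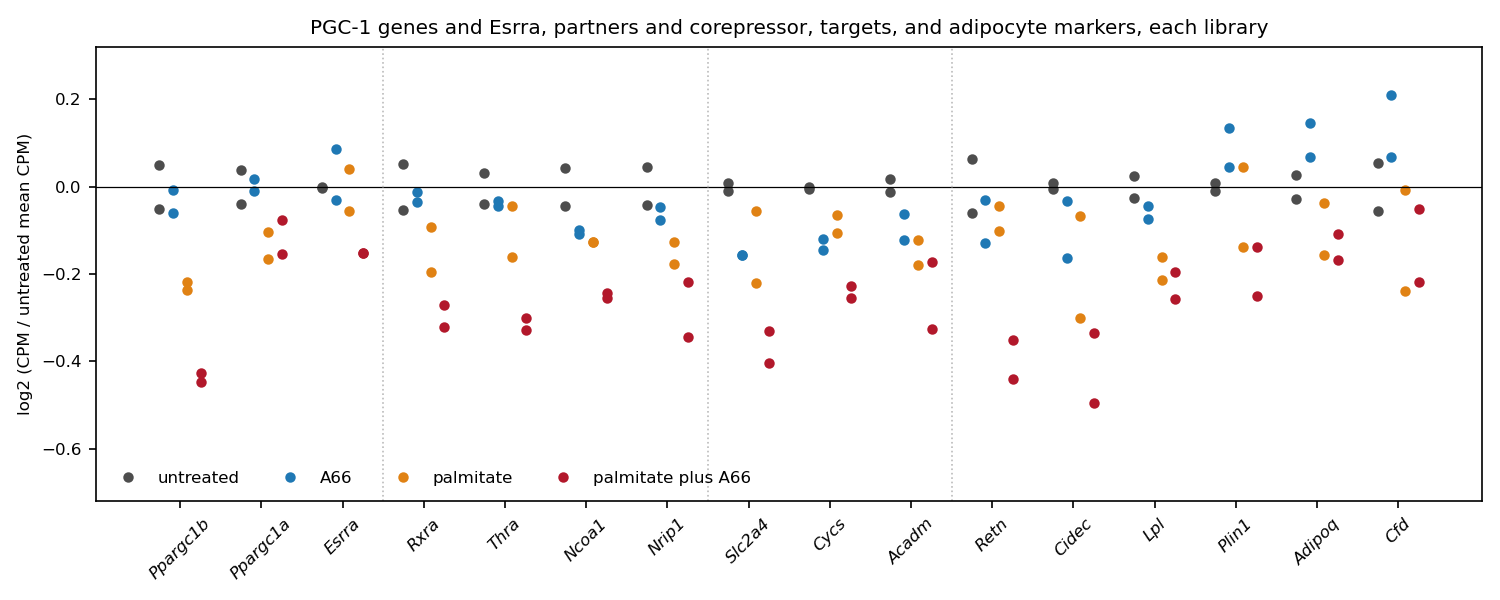
Log2 ratio of the CPM in each library to the mean of untreated cells (vertical axis), for the PGC-1 genes and Esrra, for partners and Nrip1, for targets, and for adipocyte markers (separated by dotted lines). Both libraries with palmitate plus A66 lie below all others for Ppargc1b, Esrra, Rxra, Thra, Ncoa1, Nrip1, Slc2a4, Cycs, Retn and Cidec. Genes were picked for this figure with their values known, and how many of all genes lie so was not counted.

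The end product of the circuit within mitochondria, the 13 mRNAs encoded by mitochondrial DNA, had at most 2 calls in a comparison. Counted were 46 to 80 reads for mt-Co2, 74 to 122 for mt-Co3 and 2338904 to 3093593 for mt-Co1, and no source used here says how reads that fit several places were assigned, so these counts are not given as levels of one gene against another. With A66 alone 1 of the 13 was called, against 1.84% of all genes, mt-Nd6, the only one encoded on the other strand, with 366 and 350 CPM in untreated cells and 445 and 420 CPM with A66 (0.27 ± 0.04, SE; edgeR, adjusted p = 0.000509). The call was lost when all 8 libraries entered the fit. No source used here says whether reads were counted by strand, so reads from the opposite strand at mt-Nd6 cannot be told apart. With palmitate 0 passed in edgeR (1 at an unadjusted p under 0.05, mt-Co2, -0.54, DESeq2 0), with A66 added to palmitate 0 (3, with mt-Atp6 the smallest p, 0.18, DESeq2 1), and with palmitate added to A66 0 (4, with mt-Nd6 the smallest p, -0.27, DESeq2 1). That last value rested on single libraries, at -0.0763 without palmitate plus A66 replicate 1 and -0.498 without palmitate plus A66 replicate 2. It passed in 8 of 17 alternatives and omissions. For mt-Co2 with palmitate, on 46 to 80 counts, leaving out 1 library gave -0.746 to -0.325. Median log2 fold changes over the 13 ran from -0.04 to 0.04 in these 4 comparisons. In those added later, mt-Nd4l was the 1 of 13 called with palmitate plus A66 against untreated cells, against 7.5% of all genes (0.44 higher; edgeR, adjusted p = 0.0498). This call was lost with library totals only, with DESeq2, with the length correction and with only the 4 libraries compared. Its log2 fold change ran from 0.195 without palmitate plus A66 replicate 2 to 0.652 without palmitate plus A66 replicate 1. With A66 averaged 2 of 13 were higher, against 4.97% of all genes, mt-Nd6 (0.21) and mt-Nd4l (0.36; edgeR, adjusted p = 0.0205 and 0.0257). With palmitate averaged 1 of 13 was called, against 5.05%, with mt-Nd6 lower (-0.21; edgeR, adjusted p = 0.0209). DESeq2 called mt-Nd6 in neither (adjusted p = 0.299 and 0.292). Without palmitate plus A66 replicate 2 its A66 value was 0.101, and without palmitate plus A66 replicate 1 its palmitate value was -0.115. Each of these 4 calls was lost in 3 to 5 of the omissions of a library, among them for mt-Nd4l palmitate plus A66 replicate 2 and for mt-Nd6 A66 replicate 1 and palmitate replicate 1.

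Across the 8 libraries the coactivators did not move as a unit. Pearson's r of log2 CPM was 0.79 between Ppargc1a and Ppargc1b, but 0.08 between Ppargc1a and Pprc1 and -0.04 between Ppargc1b and Pprc1. Ppargc1a lay closest to Gabpa (0.93), and Ppargc1b closest to Esrra (0.82) and Tfam (0.80), while Nrf1 ran from -0.43 with Esrra to 0.27 with Ppargc1a. Genes most like each coactivator were ranked among 11890 genes with a mean of at least 1 CPM. For Ppargc1b they were Gsn, encoding the actin-severing protein gelsolin (r = 0.99; 698 and 675 CPM in untreated cells, 564 and 557 CPM with palmitate plus A66), Adcyap1r1, encoding the receptor for the peptide PACAP (0.98; 27.4 and 26.3 CPM against 14.2 and 13 CPM), and Mlec (0.98). For Ppargc1a they were Lnpep, encoding the insulin-regulated aminopeptidase that travels with GLUT4 (0.97; 238 and 225 CPM in untreated cells, 214 and 207 CPM with palmitate), A930024E05Rik (0.97) and Arntl2 (0.95), and for Pprc1 Phf12 (0.93), Hoxa2 (0.92) and Prkab2 (0.92). These are descriptions over 8 libraries that share their 4 groups, and no test was made of them.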

How the data were processed

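RNA of 8 libraries of 3T3-L1 adipocytes, 2 in each of 4 groups taken from the sample labels, was measured by stranded polyA RNA-seq. The authors aligned paired-end reads to GRCm38 with TopHat2 2.0.11 and counted reads per Ensembl gene with HTSeq, and deposited raw counts. The HTSeq version and gene models are not given in the sources used here, and the 6 deposited columns of the authors' own comparison (mean, fold change, its error, statistic and p-values) were not used. Symbols, positions and lengths came from GENCODE M21 (42548 of 43629 genes matched, Prmt1 of the regulator list did not).

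Counts were tested with edgeR 4.0.16 in R 4.3.3 (TMM scaling, filterByExpr with a minimum count of 10, quasi-likelihood test, Benjamini-Hochberg adjustment over all genes, threshold 0.05). A66 against untreated was fitted on its 4 libraries and all other comparisons on all 8, and the averaged comparisons and palmitate plus A66 against untreated were added after seeing the data. CPM values use the TMM scaling, with factors from 0.982 to 1.013. Alternatives were RLE scaling, library totals only, DESeq2 1.42.0, other filters, a replicate block, a length correction, another set of libraries in the fit and leaving out each library. Replicates differed by more than counting noise (mean chi-square per gene 6.15 to 8.99). Simulated data with known changes were used to test the scripts.

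The 10 genes and all other lists were chosen with earlier results of these data known. Named were all 10 genes, from each other list the 3 called genes with the smallest p or, where none was called, the 1 with the smallest p, and the 3 genes most correlated with each coactivator. The rule for the lists was not followed in the interaction. Nor was it followed for the other nuclear genes of mitochondrial DNA in the comparisons added later. Marker genes, and other list members, are named outside that rule, after their values were seen.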

Additional observations from a re-analysis of the deposited data

How the results depend on the processing

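Log2 fold changes were recomputed for all 10 genes for A66 against untreated cells, and in each other comparison only for those with an unadjusted p under 0.05, so that values near 0 there were not rerun. Of these 479 values, 447 kept direction and side of the threshold, 12 passed it only in the alternative, 6 lost it and 14 turned sign, all of the last in A66 against untreated cells, where no value was called. There Ppargc1a turned to -0.00695 and Tfam to -0.0158 with scaling by library totals only, and Tfam to -0.00266 with all 8 libraries in the fit. Leaving out 1 library gave -0.0284 to 0.0474 for Ppargc1a, -0.0766 to 0.025 for Ppargc1b, -0.167 to 0.0137 for Pprc1, -0.082 to 0.00862 for Gabpa, -0.0249 to 0.0926 for Esrra, -0.0324 to 0.0383 for Tfam and -0.0405 to 0.0208 for Polg. The number of the 10 genes called with palmitate added to A66 was 2 with library totals only or with only the 4 libraries compared, and 0 to 1 without 1 library. Against untreated cells it was 2 with library totals only. For palmitate averaged it was 1 to 3 without 1 library. For A66 averaged it was 1 with RLE scaling, without a filter, with at least 10 counts in every library and with the length correction, and 0 to 1 without 1 library. The cause of these shifts was not tested.

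Without a filter the genes called over the whole table were 459 in place of 261 for A66, 396 in place of 171 for palmitate, 652 in place of 410 for A66 added to palmitate, 664 in place of 398 for palmitate added to A66 (689 with only the 4 libraries compared) and 91 in place of 1 for the interaction, where DESeq2 called 21. Leaving out 1 library moved these counts further, for A66 to 98 without A66 replicate 2 and 635 without untreated replicate 2, for palmitate down to 71 without palmitate replicate 1, for A66 added to palmitate down to 147 without palmitate replicate 2, for palmitate added to A66 down to 107 without A66 replicate 1, for palmitate plus A66 against untreated cells from 1094 down to 437 without palmitate plus A66 replicate 1, and without A66 replicate 1 from 736 down to 372 for palmitate averaged and from 725 down to 412 for A66 averaged. The percentages given beside the 10 genes move with them. Same-numbered libraries did not deviate together (r from -0.148 to 0.153 over 8956 genes), so the numbers were not taken as pairs. With the replicate block 1 of the 10 genes was called with palmitate added to A66, as without it, and the block alone changed no call of the 10. With the block and the length correction A66 averaged called 1. The 10 genes had 717 or more counts in each library, and how depth limits the tests was not tested.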
